A study of Rattus norvegicus with 20 samples.

Results

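This comparison sets the injured dorsal root ganglia (DRG) of rats fed a fish oil diet (FOD) against those of rats fed a soy oil diet (SOD). It uses 7 of the 20 libraries of the series, chosen by their labels alone: the left DRG of 4 FOD-CCI rats (replicates 1 to 4) and of 3 SOD-CCI rats (replicates 1 to 3). CCI is chronic constriction injury, in which 4 loose chromic gut ligatures are tied around the left sciatic nerve. All animals were female Sprague-Dawley rats of wild-type genotype, 8 to 10 weeks old by the study's methods. The methods give this age ahead of a 1 week acclimatization and the diets. SOD was the control diet on the AIN-93G formula, and FOD was a modified form of it in which fish oil supplied the omega-3 fatty acids DHA and EPA. Both diets were given for 4 weeks before surgery, and DRG were collected 1 week after it, by the study's account. The methods also state 4 weeks of diet after surgery, longer than the 1 week to DRG collection. The other left libraries come from sham rats of each diet (4 SOD-CT and 3 FOD-CT), whose nerve was exposed without ligatures, and 6 contralateral libraries come from the right DRG of 3 SOD-CCI and 3 FOD-CCI rats. Whole ganglia were sequenced after selection of polyadenylated RNA, and the 7 libraries held 26887522 to 54437581 counts each. Replicates are separate rats by the study's methods.

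The DRG holds the cell bodies of sensory neurons, which carry touch, heat, cold and pain signals from the body to the spinal cord. Small neurons called nociceptors use voltage-gated sodium channels to fire and TRP and Piezo channels to sense heat, chemicals and pressure, and they release peptides such as CGRP. When the sciatic nerve is injured, these neurons switch on a program led by the transcription factor Atf3 and the peptides galanin, neuropeptide Y and VIP, and macrophages gather around them. DHA and EPA from fish oil enter cell membranes and are known as precursors of lipid mediators and as regulators of genes of lipid synthesis and oxidation.

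Injury genes and markers of other tissues were read in each of the 7 libraries before any comparison. In SOD-CCI, Atf3 stood at 333, 263 and 294 CPM (counts scaled to the same library total). In FOD-CCI replicates 1 to 4 it stood at 3.27, 202, 501 and 334 CPM, and the highest sham library had 47.3 CPM. Replicate 1 of FOD-CCI therefore goes against its label, since all 14 injury genes listed for this check lay within or below the range of the uninjured libraries there, and 13 of them lay below every SOD-CCI library and below FOD-CCI replicates 3 and 4. The same library held 964 CPM of spinal cord neuron markers, against 9.07 to 12.3 CPM in those 5 libraries (SOD-CCI 1 to 3 and FOD-CCI 3 and 4), and 3762 CPM of spinal cord glia markers, against 383 to 587 CPM. It also had the homeobox gene Hoxb13, which marks the caudal end of the body axis, at 34.2 CPM, where the other 6 libraries had 0. Replicate 2 of FOD-CCI carried blood transcripts. Its red cell markers summed to 24825 CPM, against 237 to 2200 CPM in the 5 libraries, and its neutrophil and marrow markers to 3243 CPM, against 14.6 to 154 CPM. Of the 14 injury genes, 12 were below the range of the 5 libraries in replicate 2, with Sox11, a growth-program transcription factor, at 4.47 CPM against 26.0 to 45.5 CPM. The neuron markers were present in every library, with sums of 29797 to 34586 CPM in SOD-CCI and 23948 to 32982 CPM in FOD-CCI. In FOD-CCI replicate 1 the sum hid opposite shifts. Snap25 (2224 CPM against 847 to 951) and Nefl (7182 against 4549 to 5134) were above SOD-CCI. Prph (1854 against 3214 to 4066), Pou4f1 (52.6 against 159 to 187) and Avil (194 against 492 to 587) were below it. Similar sums therefore do not show a similar share of sensory neurons. The comparison was therefore made in all 7 libraries and again in the 5 libraries without FOD-CCI replicates 1 and 2. Calls come from the latter, and the values over all libraries, where edgeR called no gene, stand beside them.

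**Figure D1:**
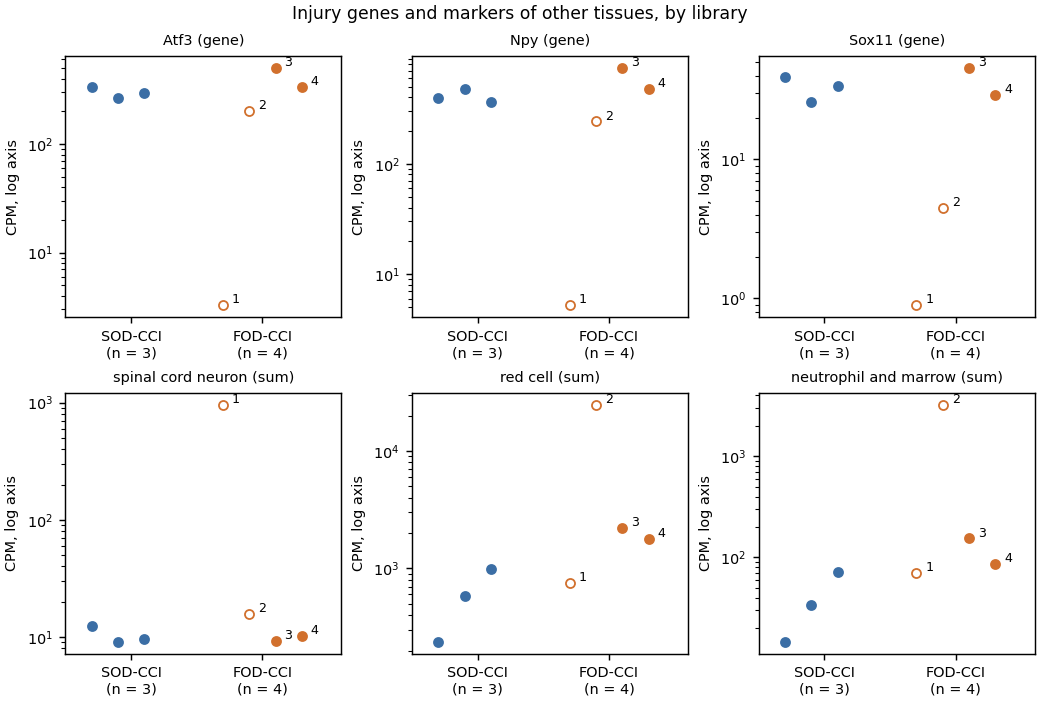
CPM of total counts (log axis) of 3 injury genes and of the summed markers of 3 other tissues in the 3 SOD-CCI libraries (blue) and the 4 FOD-CCI libraries (orange, numbered by replicate; open circles are replicates 1 and 2). FOD-CCI replicate 1 is low for Atf3, Npy and Sox11 and high for spinal cord neuron markers (964 CPM), and replicate 2 is high for red cell markers (24825 CPM) and for neutrophil and marrow markers (3243 CPM).

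The main comparison asked which genes differ with diet in injured DRG. No gene was called among 14484 tested (0.0%), where a call needs an adjusted p of at most 0.1 by edgeR's quasi-likelihood test with Benjamini-Hochberg adjustment and a fold change of at least 1.2. The smallest adjusted p was 0.859. At an unadjusted p under 0.05 there were 782 genes (5.4%), of which 560 were higher on fish oil (3.87%) and 222 lower (1.53%). All 4 FOD-CCI libraries lay above all 3 SOD-CCI libraries for 1086 genes (7.5%) and below them for 1043 genes (7.2%). DESeq2 on the same counts called 2 genes (0.014%), Klf4 and Mmp13. The model shared the spread of all 14 left libraries, with a common dispersion of 0.206. Counts were also simulated with that dispersion for every gene. There the model recovered 4% of genes changed by 1 on the log2 scale and 57.58% of genes changed by 2. At that spread 2-fold changes were mostly not detectable in it.

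In the 5 libraries without FOD-CCI replicates 1 and 2, 247 of 15481 genes were called (1.6%), 158 of them higher on fish oil (1.02%) and 89 lower (0.575%). Of the higher genes 36 encode ribosomal proteins, and the lower genes include the channels Scn10a and Trpa1, the opioid receptor gene Oprm1 and the nicotinic receptor gene Chrna3. This fit sets 2 FOD-CCI rats against 3 SOD-CCI rats and uses its own estimate of the spread, with a common dispersion of 0.0694. Its libraries are all part of the main comparison, so the fits are not independent of each other, and 8 of the 247 genes were not tested in the 14-library model. The count was 62 (0.41%) when only FOD-CCI replicate 1 was left out, and 0 when only replicate 2 was left out (1373 genes at an unadjusted p under 0.05 by edgeR). It also moved when a further library was taken from the 5. Removing a SOD-CCI rat gave 234 (replicate 1), 0 (replicate 2, with 1402 at an unadjusted p under 0.05) or 48 (replicate 3) genes, and removing a FOD-CCI rat gave 897 (replicate 3) or 65 (replicate 4).

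The sodium channel gene Scn10a was lower in every library on fish oil. It encodes Nav1.8, which carries most of the upstroke of the nociceptor action potential. In TMM-scaled CPM (the scale of all gene values from here on) it stood at 283, 322 and 266 in SOD-CCI and at 68.2, 167, 127 and 121 in FOD-CCI. Every FOD-CCI library was below every SOD-CCI library. FOD-CCI replicates 1 and 2 carried transcripts of other tissue. The part of that tissue in their low values, here and for the neuronal genes below, was not tested. The log2 fold change was -1.27 (SE 0.50) with an unadjusted p of 0.0247 in edgeR's test on all libraries, and -1.24 (SE 0.15) with an adjusted p of 0.0125 in the 5 libraries, where Scn10a fell. Scn11a, which encodes Nav1.9, a channel that sets nociceptor resting excitability, stood at 209, 213 and 154 in SOD-CCI and at 78.3, 176, 89.0 and 90.5 in FOD-CCI, where replicate 2 overlapped the SOD-CCI range. Scn11a fell in the 5 libraries by 1.11 on the log2 scale (edgeR adjusted p = 0.0286), and so did Scn8a, the Nav1.6 channel of nodes of Ranvier, by 1.03 (adjusted p = 0.0324). Over all libraries their values were -0.83 (SE 0.42) and -0.99 (SE 0.64), with unadjusted p values of 0.0721 and 0.149 by edgeR. Scn9a, which encodes Nav1.7, was not called, with 335 ± 21.0 (SD, n = 3) in SOD-CCI and 228 ± 92.2 (SD, n = 4) in FOD-CCI. Of 12 sodium channel genes, 3 fell and none rose in the 5 libraries, where 0.575% of all genes tested fell. All 12 were on the lower side there, with a median log2 fold change of -0.50 against -0.006 over all genes tested. Over all libraries 8 of the 12 were lower and 4 higher, with a median of -0.46, and only Scn10a was at an unadjusted p under 0.05. In bulk tissue, fewer neurons and less RNA per neuron cannot be told apart. Beside these values, the 16 general neuron markers had a median of -0.19 in the 5 libraries, where 3 of them fell (Rbfox3, Avil and Syt1).

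Channels that sense stimuli were on the same side. Trpa1, the irritant sensor of nociceptors, stood at 98.9, 112 and 114 in SOD-CCI and at 18.7, 59.0, 41.6 and 48.2 in FOD-CCI. Piezo2, the channel of light touch and proprioception, stood at 211, 249 and 241 in SOD-CCI and at 64.3, 119, 133 and 121 in FOD-CCI. For both genes the groups did not overlap, with the same limit for FOD-CCI replicates 1 and 2. Over all libraries the log2 fold change was -1.37 (SE 0.53) for Trpa1 and -1.10 (SE 0.44) for Piezo2, with unadjusted p values of 0.0223 and 0.0271 in edgeR's test. Both fell in the 5 libraries, Trpa1 by 1.29 (adjusted p = 0.0124) and Piezo2 by 0.90 (adjusted p = 0.0324), as 2 of 15 transduction channels, with none that rose. Trpv1, the heat and capsaicin receptor, was not called although its libraries did not overlap, with 102 ± 10.4 (SD, n = 3) in SOD-CCI and 59.2 ± 24.9 (SD, n = 4) in FOD-CCI (adjusted p = 0.108 in the 5 libraries, by edgeR). Among 25 potassium channel genes, 23 were lower in the 5 libraries and 2 fell, against 0.575% of all genes. These were Kcnd3, an A-type channel that delays firing (-0.89, adjusted p = 0.0597 by edgeR), and Kcnab2, an auxiliary subunit (-0.63, adjusted p = 0.0730). Over all libraries 20 of the 25 were lower, and unadjusted p values were 0.0245 for Kcnd3 and 0.269 for Kcnab2 by edgeR. Kcnk18, the TRESK leak channel of nociceptors, had low levels of 5.36, 6.33 and 5.99 in SOD-CCI and 2.46, 1.29, 0.582 and 1.92 in FOD-CCI and was not called (adjusted p = 0.117 by edgeR in the 5 libraries). None of 18 calcium and HCN channel genes was called in the 5 libraries, with a median of -0.26. Channels that drive firing and channels that restrain it were therefore both on the lower side.

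**Figure D2:**
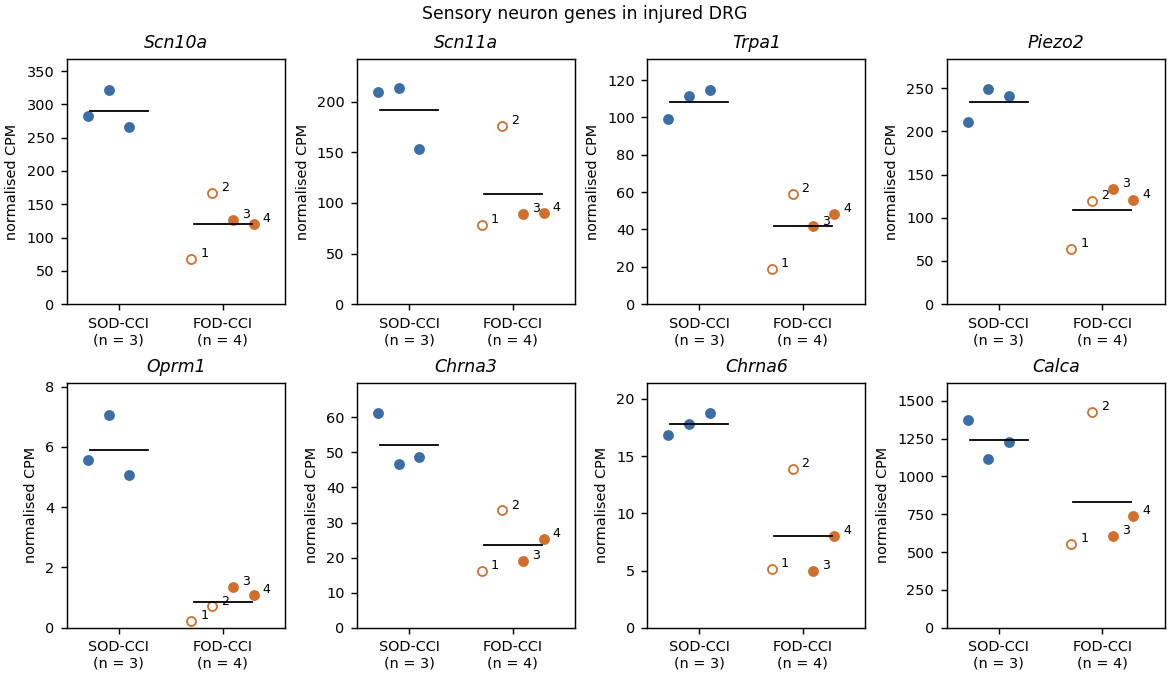
Normalised CPM of 8 sensory neuron genes in each SOD-CCI library (blue, n = 3) and each FOD-CCI library (orange, n = 4, numbered by replicate; open circles are replicates 1 and 2), with black lines at the group means and axes from 0. All FOD-CCI libraries lie below all SOD-CCI libraries for Scn10a, Trpa1, Piezo2, Oprm1, Chrna3 and Chrna6, while Scn11a and Calca overlap.

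The mu opioid receptor gene Oprm1, the target of morphine, stood at 5.57, 7.05 and 5.07 CPM in SOD-CCI and at 0.220, 0.711, 1.35 and 1.08 CPM in FOD-CCI. Its groups did not overlap, and its sham libraries ranged from 0.884 to 8.99 on soy oil and from 0 to 3.19 on fish oil. It missed the count minimum of the 14-library model and so was not tested there. Without that filter its log2 fold change was -2.81 (SE 1.07) with an unadjusted p of 0.0173 by edgeR. In the 5 libraries Oprm1 fell by 2.29 (SE 0.45, adjusted p = 0.0584 by edgeR), a fold of 4.89. It was the only member called of 14 opioid and cannabinoid genes. Oprl1, the nociceptin receptor, was lower without overlap but not called, with 41.7 ± 4.08 (SD, n = 3) in SOD-CCI and 29.9 ± 3.76 (SD, n = 4) in FOD-CCI.

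The peptides of nociceptors divided. Calca encodes CGRP alpha, a vasodilator peptide of pain fibers, and stood at 1375, 1117 and 1225 in SOD-CCI and at 555, 1428, 608 and 741 in FOD-CCI. Replicates 1, 3 and 4 were below the SOD-CCI range and replicate 2 was above it. Calca fell in the 5 libraries by 0.89 (adjusted p = 0.0637 by edgeR), and Calcb, which encodes CGRP beta, fell by 0.65 (adjusted p = 0.0903). In all 7 libraries neither was near a call, with unadjusted p values of 0.190 and 0.550. Tac1, the gene of substance P, was not called (-0.22 (SE 0.43) over all libraries, -0.51 and an adjusted p of 0.197 in the 5 libraries, by edgeR). Cck, the gene of cholecystokinin, a peptide known to oppose opioid analgesia, went the other way, at 7.19, 7.39 and 9.23 in SOD-CCI and 53.2, 9.55, 34.7 and 35.9 in FOD-CCI. All 4 FOD-CCI libraries were above SOD-CCI, and Cck rose in the 5 libraries by 2.13 (SE 0.21, adjusted p = 0.0108 by edgeR). The same gene had a log2 difference of 2.24 (SE 0.78) between the sham groups, so its diet difference was not shown to differ between injured and sham DRG (interaction -0.17 (SE 1.08), unadjusted p = 0.878). The highest injured Cck value was in FOD-CCI replicate 1, with spinal cord transcripts. In the sham groups, FOD-CT replicate 1 held 942 CPM of spinal cord neuron markers. The part of spinal cord in the Cck differences was not tested.

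Further neuronal genes were noticed among those that fell in the 5 libraries. Drgx, a homeobox factor required for nociceptor development, stood at 58.7, 54.4 and 58.1 in SOD-CCI and at 26.2, 30.5, 31.2 and 26.0 in FOD-CCI, with no overlap. It fell in the 5 libraries by 1.01 (adjusted p = 0.0300 by edgeR), as did Prdm12, a factor whose loss causes congenital insensitivity to pain, by 0.96 (adjusted p = 0.0917), and Isl2 by 0.76 (adjusted p = 0.0871). The serotonin-gated channel gene Htr3a fell by 1.03 (adjusted p = 0.0286) and the kainate receptor gene Grik1 by 1.25 (adjusted p = 0.0637). Over all libraries the unadjusted p was 0.00934 for Drgx, 0.0513 for Prdm12, 0.167 for Isl2, 0.156 for Htr3a and 0.0260 for Grik1 by edgeR. Isl1 and Pou4f1, sensory neuron identity factors in the list of neuron markers, overlapped between the groups and were not called, so these genes do not stand for all such factors. Avil, which encodes advillin, an actin-binding protein of sensory neurons, fell by 0.80 (adjusted p = 0.0671), with 520.0 ± 53.2 (SD, n = 3) in SOD-CCI and 260.4 ± 57.3 (SD, n = 4) in all of FOD-CCI. Among 25 genes of synaptic vesicle release 23 were lower in the 5 libraries, with a median of -0.44, and 3 fell, against 0.575% of all genes. Over all libraries 21 of the 25 were lower, with a median of -0.34. Syt1, the calcium sensor of fast release, fell by 0.72 (adjusted p = 0.0811), and Sv2b, a vesicle glycoprotein, fell by 0.62 (adjusted p = 0.0795). None of the 8 neurotrophin and GDNF receptor genes was called. Ret and Ngfr, receptors of GDNF ligands and of neurotrophins, had no overlap between groups and log2 fold changes of -0.55 (SE 0.29) and -0.62 (SE 0.46) over all libraries. Drgx, Prdm12, Isl2, Htr3a and Avil are named here after their values were seen.

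Nicotinic acetylcholine receptor genes were a group noticed in the values. Of 11 neuronal subunit genes, 7 were tested, all 7 were lower on fish oil over all libraries, and 6 did not overlap (Chrna3, Chrna5, Chrna6, Chrna7, Chrnb3 and Chrnb4), where 7.2% of all genes did so on the lower side. The part of other tissue in FOD-CCI replicates 1 and 2 was not tested. Of the 5 subunits of the muscle receptor, Chrnb1 and Chrne were tested, and both overlapped. Chrna3 stood at 61.3, 46.7 and 48.6 in SOD-CCI and at 16.2, 33.5, 19.1 and 25.4 in FOD-CCI, and Chrna5 at 7.51, 9.16 and 8.83 and at 2.68, 2.88, 3.57 and 2.86. The Chrna5 libraries were tight within each group, with SDs of 0.873 and 0.391 CPM. The log2 fold change over all libraries was -1.15 (SE 0.37) for Chrna3 (unadjusted p = 0.00796 by edgeR) and -1.50 (SE 0.40) for Chrna5 (unadjusted p = 0.00219). In the 5 libraries Chrna3 fell by 1.25 (adjusted p = 0.0300) and Chrna6 by 1.47 (adjusted p = 0.0532), while Chrna5 (-1.42, adjusted p = 0.117) and Chrnb3 (-1.35, adjusted p = 0.108) missed the threshold. Chrnb2, the subunit of the most common brain receptor, overlapped between the groups at 116 ± 2.70 (SD, n = 3) and 88.8 ± 47.9 (SD, n = 4). Its log2 fold change turned from -0.39 (SE 0.49) over all libraries to 0.13 (SE 0.14) in the 5, where the other 6 neuronal subunits were lower. Chrnb4 is annotated inside the span of Chrna3 on the same strand in the deposited table, so its reads are uncertain.

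The 12 lower genes with the smallest unadjusted p and no overlap were read next. Of them 5 fell in the 5 libraries. Tenm1, a teneurin that guides synapse partners, stood at 24.6 ± 3.88 (SD, n = 3) in SOD-CCI and 12.3 ± 1.33 (SD, n = 4) in FOD-CCI (-0.99 (SE 0.23), unadjusted p = 0.000794 by edgeR), and fell in the 5 libraries (adjusted p = 0.0795). Sphkap, an anchor of protein kinase A, stood at 43.9, 46.9 and 36.5 in SOD-CCI and 23.4, 15.3, 20.8 and 16.4 in FOD-CCI, with a log2 fold change of -1.16 (SE 0.32) over all libraries, and fell in the 5 (adjusted p = 0.0327). Gpr161, a receptor of primary cilia, and Thsd7a, a factor of endothelial cell migration, also fell in the 5 libraries, by 0.76 (adjusted p = 0.0503) and 0.91 (adjusted p = 0.0557). Greb1l, Trim24, Btaf1, Golga3, Cdh6 and St8sia3 had unadjusted p values from 0.00254 to 0.00584 over all libraries and were not called in the 5.

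Among genes higher on fish oil, Klf4, a zinc-finger factor induced by cell stress and growth arrest, stood first. It had 2.72, 4.81 and 3.89 in SOD-CCI and 8.36, 20.9, 11.8 and 18.6 in FOD-CCI. The SOD-CCI libraries were also below the sham libraries, which ranged from 9.11 to 15.6 on soy oil and from 5.25 to 13.1 on fish oil. Its log2 fold change was 1.97 (SE 0.42) over all libraries (unadjusted p = 0.000358 by edgeR, adjusted p = 0.0325 by DESeq2), and it rose in the 5 libraries (adjusted p = 0.0459). The interaction with surgery was 2.36 (SE 0.57) with an unadjusted p of 0.00107. Klf4 was the only member called of 16 immediate early genes, which had a median of 0.59 in the 5 libraries. Of the 12 highest-ranked higher genes, 8 rose in the 5 libraries. Metrn encodes meteorin, a secreted factor of glia and axon growth, and stood at 81.9, 88.0 and 105 in SOD-CCI and at 198, 199.6, 163 and 173 in FOD-CCI (1.00 (SE 0.23) over all libraries, 0.85 (SE 0.15) with an adjusted p of 0.0397 by edgeR in the 5). Hmgn1, a nucleosome-binding protein, stood at 39.6, 43.4 and 45.6 in SOD-CCI and at 77.6, 114, 70.8 and 72.3 in FOD-CCI (adjusted p = 0.0584 in the 5 libraries). Enho, which encodes the peptide adropin, and Snrpg, a core protein of the splicing snRNPs, rose in the 5 libraries by 0.73 (adjusted p = 0.0719) and 1.19 (adjusted p = 0.0461). Ndnl2, a subunit of a chromosome-maintenance complex, rose by 0.83 (adjusted p = 0.0890). The other rises were 2 pseudogenes, Hint1-ps1 and Rpl36a-ps2, whose reads can come from their parent genes. Snrpd2, also of the snRNPs, and Znrd1, an RNA polymerase I subunit, were higher without overlap and missed the threshold in the 5 libraries (adjusted p = 0.104 and 0.229). Cd320, the vitamin B12 uptake receptor, and Ggh, a lysosomal folate hydrolase, were higher without overlap but not called, with means of 54.2 ± 10.4 and 43.8 ± 18.8 in FOD-CCI (SD, n = 4) against 29.8 ± 5.13 and 20.9 ± 4.10 in SOD-CCI (SD, n = 3). Mmp13, a collagenase, was called by DESeq2 over all libraries (adjusted p = 0.0771) with 0.388, 0.217 and 0.458 in SOD-CCI and 1.32, 31.0, 1.78 and 0.841 in FOD-CCI, where replicate 2 alone held most of the counts.

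**Figure D3:**
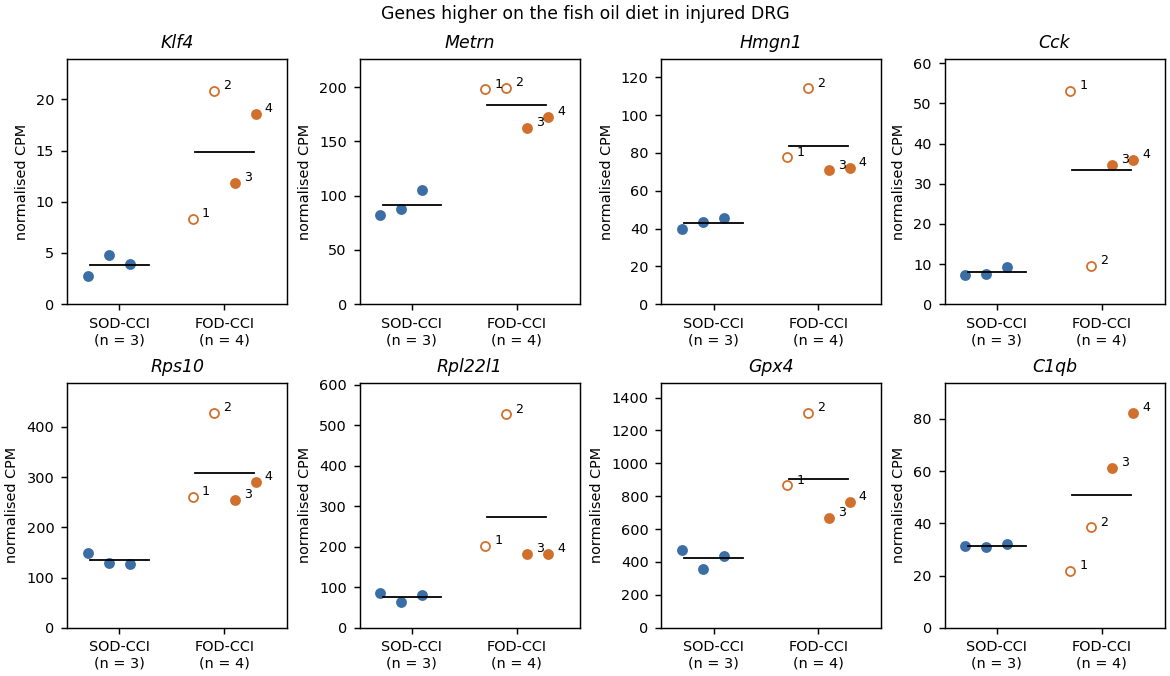
Normalised CPM of 8 genes with higher values on fish oil in each SOD-CCI library (blue, n = 3) and each FOD-CCI library (orange, n = 4, numbered by replicate; open circles are replicates 1 and 2), with black lines at the group means and axes from 0. All FOD-CCI libraries lie above all SOD-CCI libraries for Klf4, Metrn, Hmgn1, Cck, Rps10, Rpl22l1 and Gpx4, while C1qb overlaps, and replicate 2 holds the highest Rpl22l1 value.

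Genes of cytosolic ribosomal proteins were the largest group on the higher side. All 81 were higher on fish oil over all libraries, with a median log2 fold change of 0.66 against 0.04 over all genes tested, 36 were at an unadjusted p under 0.05 (3.87% of all genes were, on this side), and 62 did not overlap between groups. That share was 7.5% over all genes and 23.0% over genes of 501 to 1000 bases, and the median length of these 81 was 603 bases. In the 5 libraries 36 of 81 rose, against 1.02% of all genes, and none fell, with a median of 0.65. Rps10, a protein of the small subunit, stood at 148, 129 and 127 in SOD-CCI and 261, 429, 255 and 291 in FOD-CCI, and rose in the 5 libraries by 1.00 (adjusted p = 0.0243 by edgeR). Rps14, also of the small subunit, stood at 308, 256 and 341 in SOD-CCI and 547, 1501, 752 and 792 in FOD-CCI (adjusted p = 0.0125). Rpl22l1, a paralog of the large subunit protein Rpl22, stood at 85.2, 63.9 and 79.8 and 202, 527, 182 and 182 and rose by 1.24 (adjusted p = 0.0125). In all of these genes replicate 2 of FOD-CCI, the library with blood transcripts, was the highest, and replicates 3 and 4 were still above SOD-CCI. Ribosomal protein genes have many near-identical pseudogene copies, and how reads with several alignments were counted is not given in the sources used here, so single genes are uncertain.

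Most ribosomal protein mRNAs begin at a C inside a run of pyrimidines, the 5′ terminal oligopyrimidine (TOP) motif, through which growth signals control their translation. The starts of 5 members are shown to let the group be read at the sequence that its members share, with 60 bases before and 20 bases after the annotated start from RefSeq on GRCr8. Capitals mark a run of C and T of at least 8 bases that lies within 4 bases of the start. Rps10 (chr20:5700725-5700804, minus strand), Rps24 (chr16:96457-96536, plus strand), Rps27 (chr2:177964587-177964666, minus strand) and Rpl31 (chr9:49143051-49143130, plus strand) hold such a run, and Rpl22l1 (chr2:113683136-113683215, plus strand) does not.
Rps10: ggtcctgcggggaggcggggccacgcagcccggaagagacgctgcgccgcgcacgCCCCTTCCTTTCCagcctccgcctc
Rps24: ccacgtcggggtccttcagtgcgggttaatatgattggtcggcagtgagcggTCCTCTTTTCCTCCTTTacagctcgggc
Rps27: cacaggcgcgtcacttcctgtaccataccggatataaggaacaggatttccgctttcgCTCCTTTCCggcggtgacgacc
Rpl31: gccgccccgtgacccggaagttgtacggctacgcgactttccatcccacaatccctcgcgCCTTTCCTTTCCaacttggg
Rpl22l1: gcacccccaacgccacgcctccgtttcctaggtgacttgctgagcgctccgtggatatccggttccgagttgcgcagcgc
The run was searched on the transcribed strand only, and a gene counted if any of its annotated starts held it. It was present in 37 of 61 ribosomal protein genes that could be matched (60.7%). It was present in 9.38% of the 10882 genes tested that had a start and in 9.77% of all 27457 genes with a start. It was present in 17 of the 30 matched members that rose in the 5 libraries (56.7%) and in 20 of the 31 that were not called (64.5%). The share was not higher among the members that rose than among the others. A match describes these letters and not a site in use.

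Other genes of protein and energy production were higher by less. For the counts below, 1.02% of all genes tested rose in the 5 libraries. Of 73 mitochondrial ribosomal proteins, 72 were higher over all libraries with a median of 0.35, but only Mrps18c rose in the 5 libraries (1.27, adjusted p = 0.0175 by edgeR), where the median was 0.14. Genes of complex I of the respiratory chain had a median of 0.57 over all libraries and 0.21 in the 5, where 4 of 34 rose, among them Ndufa2 (0.87, adjusted p = 0.0367). Genes of complexes II to V had medians of 0.48 and 0.19, and 3 of 40 rose in the 5 libraries, among them Cox7b (0.94, adjusted p = 0.0268). Cox7b, a small subunit of cytochrome c oxidase, stood at 138, 109.6 and 123 in SOD-CCI and 296, 766, 244 and 236 in FOD-CCI, where replicate 2 was far above the others. Of 45 proteasome genes, 2 rose in the 5 libraries, among them Psmb4, a core subunit (0.94, adjusted p = 0.0417). Rps27a, which encodes ubiquitin fused to a ribosomal protein, stood at 422, 179 and 289 in SOD-CCI and 579, 1703, 938 and 1126 in FOD-CCI.

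Selenoproteins use selenium as selenocysteine and include glutathione peroxidases that remove peroxides of hydrogen and lipids. Of 26 genes of this list, 20 were higher over all libraries with a median of 0.30, and 5 were at an unadjusted p under 0.05. Gpx4, the peroxidase that repairs oxidized phospholipids and blocks ferroptosis, stood at 473, 354 and 438 in SOD-CCI and 866, 1307, 670.2 and 766 in FOD-CCI, and Gpx1, the main cytosolic peroxidase, at 76.4, 77.2 and 77.4 and 101, 376, 108 and 151. Neither overlapped, and both rose in the 5 libraries, Gpx4 by 0.75 (adjusted p = 0.0878 by edgeR) and Gpx1 by 0.73 (adjusted p = 0.0803). No other member of the 26 was called there, where 1.02% of all genes rose and the median of the list was 0.11. Sephs2, the enzyme that makes the selenium donor, was not called at 33.2 ± 2.75 (SD, n = 3) against 47.4 ± 11.3 (SD, n = 4), and Selenop, the plasma carrier of selenium, overlapped between groups.

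The length of a gene moved with these differences. Across the 14484 genes, the log2 fold change had a Spearman correlation of -0.347 with gene length, a description over genes that share libraries and are not replicates. Genes of up to 500 bases had a median of 0.59, and 32.9% of them did not overlap between the groups on the higher side. Genes over 8000 bases had a median of -0.26, and 23.3% did not overlap on the lower side. Between the sham groups the short genes had a median of -0.50. Called genes followed the same pattern, since the 158 higher genes of the 5 libraries had a median length of 864 bases and the 89 lower genes 3528 bases, against 2331 over genes tested. With an offset that removes the trend with length in each library, 96 genes were called in the 5 libraries (0.62%), 47 higher (0.304%) and 49 lower (0.317%), and 93 of them were among the 247. With that offset 14 ribosomal protein genes rose instead of 36, and their median was 0.34 in the 5 libraries and 0.23 over all. No gene of the respiratory chain and no selenoprotein was called with it, Gpx4 at an adjusted p of 0.171 and Gpx1 at 0.241. Of the 54 called genes read one by one, 28 held with the offset and 26 did not. Those that held, at adjusted p values of 0.0351 (Trpa1) to 0.0981 (Oprm1) by edgeR, were Klf4, Sphkap, Chrna3, Chrna6, Scn10a, Scn11a, Scn8a, Kcnab2, Trpa1, Piezo2, Oprm1, Calca, Calcb, Cck, Drgx, Isl2, Htr3a, Rps10, Rpl22l1, Rps14, Mrps18c, Psmb4, Rps27a, C1qb, Lyz2, Elovl7, Vip and Ecel1. Besides Gpx4 and Gpx1, those that did not hold, at 0.111 (Grik1) to 0.220 (Sv2b), were Metrn, Hmgn1, Enho, Snrpg, Ndnl2, Hint1-ps1, Rpl36a-ps2, Tenm1, Gpr161, Thsd7a, Kcnd3, Grik1, Syt1, Sv2b, Avil, Prdm12, Ndufa2, Cox7b, C1qa, C1qc, Aif1, Ctss, Gal and Arg1. By list, the calls went from 4 to 1 for macrophage markers, from 4 to 1 for complement genes that rose, from 4 to 2 for the injury program, from 3 to 0 for synaptic vesicle release, from 3 to 1 for neuron markers, from 2 to 1 for potassium channels and the proteasome and from 1 to 0 for glutamate signalling, and those of sodium channels stayed at 3. The part of RNA quality in the trend was not tested.

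**Figure D4:**
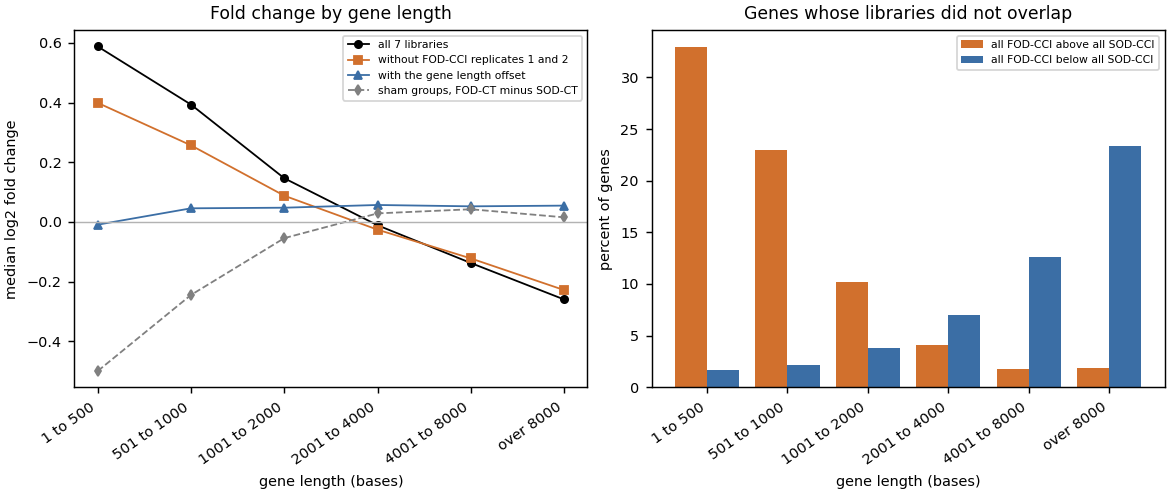
Left, the median log2 fold change of genes in 6 bins of gene length (bases) for FOD-CCI minus SOD-CCI in all 7 libraries, without FOD-CCI replicates 1 and 2 and with the gene length offset, and for FOD-CT minus SOD-CT. Right, the percent of genes in each bin whose 4 FOD-CCI libraries all lay above (orange) or all below (blue) the 3 SOD-CCI libraries, with bars from 0; the shortest genes reach 32.9% above and the longest 23.3% below.

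Macrophage and complement genes were higher in the 5 libraries, and most of their calls were lost with the length offset, which left 1 macrophage marker and 1 complement gene that rose. C1qb, a chain of the complement component C1q that macrophages and microglia make, stood at 31.3, 30.9 and 32.2 in SOD-CCI and 21.9, 38.4, 61.3 and 82.3 in FOD-CCI. Replicate 4 was the highest and replicate 1 was below all SOD-CCI libraries. C1qb rose in the 5 libraries by 1.17 (adjusted p = 0.0243 by edgeR), as did C1qa by 1.29 (adjusted p = 0.0637) and C1qc by 1.30 (adjusted p = 0.0941). Aif1, the macrophage protein Iba1, rose by 1.16 (adjusted p = 0.0512), Ctss, a lysosomal protease of macrophages and microglia, by 1.37 (adjusted p = 0.0503), and Lyz2, lysozyme, by 1.58 (adjusted p = 0.0397). With the offset C1qb (0.0491) and Lyz2 (0.0759) were called, and C1qa (0.152), C1qc (0.206), Aif1 (0.186) and Ctss (0.111) were not. Over all libraries Aif1 had an unadjusted p of 0.0492 by edgeR and the other 5 had 0.0761 (Lyz2) to 0.473 (C1qb). Of 19 complement genes 4 rose and 1 fell in the 5 libraries (median 0.65), where 1.02% of all genes rose and 0.575% fell. Over all libraries 11 of the 18 tested in the 14-library model were higher, with a median of 0.20. All 12 macrophage markers were higher in the 5 libraries, 4 of them past the test, with sums of 217, 360 and 271 CPM in SOD-CCI and 190, 410, 383 and 768 CPM in FOD-CCI replicates 1 to 4. These sums overlap between groups over all libraries. MHC class II genes were not called, with 223, 319.5 and 333 in SOD-CCI and 19.5, 257, 421 and 1073 in FOD-CCI for Cd74, the invariant chain. C3, the central complement protein, was not called, at 10.3, 35.1 and 19.7 in SOD-CCI and 37.9, 85.8, 31.8 and 31.0 in FOD-CCI. Cxcl10, an interferon-induced chemokine, was lower without overlap at 13.8, 6.80 and 5.17 against 3.41, 4.23, 2.56 and 3.26 (unadjusted p = 0.00904 by edgeR over all libraries) and was not called. Red cell sums were 237 to 981 CPM in SOD-CCI and 2200 and 1776 CPM in FOD-CCI replicates 3 and 4, fibroblast sums were 4672 CPM in FOD-CCI replicate 4 against 1269 to 2738 CPM in the 4 other libraries of the 5, and the part of these cells in the immune genes was not tested.

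The injury program itself depended on which libraries were counted. Over all 7 libraries its 20 tested genes had a median of -0.20, with 14 lower on fish oil and none called. FOD-CCI replicates 1 and 2 were set aside after injury genes, Gal, Vip, Ecel1 and Arg1 among them, had been found mostly low there. The values of this program in the 5 libraries are partly set by that choice. In the 5 libraries 21 of 24 were higher, with a median of 0.39, and 4 rose, against 1.02% of all genes. These were Gal, the gene of galanin, by 1.04 (adjusted p = 0.0581 by edgeR), Vip by 1.34 (adjusted p = 0.0423), Ecel1, a protease induced in injured neurons, by 1.02 (adjusted p = 0.0351), and Arg1, arginase 1, by 1.01 (adjusted p = 0.0790). In CPM of total counts Gal stood at 205, 146 and 146 in SOD-CCI and 8.63, 89.1, 383 and 283 in FOD-CCI, where replicates 3 and 4 were above and replicates 1 and 2 below the SOD-CCI range. Atf3 had log2 fold changes of -0.13 (SE 0.91) over all libraries and 0.53 (SE 0.20) in the 5 libraries and was not called in either (adjusted p = 0.290 in the latter, by edgeR). Csf1, the neuronal signal to microglia, and Cacna2d1, the target of gabapentin, turned from -0.19 and -0.67 over all libraries to 0.42 and 0.10 in the 5. Atf4 and Eif2ak4 of the integrated stress response were not called, with log2 fold changes of 0.19 (SE 0.42) and -0.52 (SE 0.47) over all libraries.

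Among genes of lipid metabolism, the group nearest to the diet itself, 1 was called in the 5 libraries. Fads1 and Fads2, the desaturases that make long-chain polyunsaturated fatty acids, stood at 326, 259 and 247 and at 164, 126 and 123 in SOD-CCI. In FOD-CCI they stood at 232, 277, 275 and 278 and at 80.4, 132, 136 and 165. Their log2 fold changes were -0.06 (SE 0.21) and -0.10 (SE 0.31) over all libraries and -0.02 (SE 0.16) and 0.11 (SE 0.16) in the 5, so for both genes a difference of 1 on this scale lay outside about 2 standard errors. Scd, the stearoyl-CoA desaturase, had -0.10 (SE 0.36), and Fasn, fatty acid synthase, had -0.45 (SE 0.33) over all libraries, which leaves a fall of that size within 2 standard errors for Fasn. Of 19 lipogenesis genes 1 fell in the 5 libraries, Elovl7, an elongase of saturated very long chain fatty acids, at 113, 99.8 and 108 in SOD-CCI and 64.5, 67.8, 65.4 and 70.4 in FOD-CCI (adjusted p = 0.0648 by edgeR, and 0.0492 with the length offset). None of 25 cholesterol genes was called. None of 28 genes of fatty acid oxidation and PPAR targets was called in the 5 libraries either, with Cpt1a, the gate of mitochondrial fatty acid import, at -0.31 (SE 0.27) and Pdk4 at 0.19 (SE 0.61) over all libraries. Among 19 enzymes of eicosanoid and docosanoid synthesis 16 were higher in the 5 libraries with a median of 0.41, a size near that of the sodium channels in the other direction, and none was called. Over all libraries 12 of 15 were higher with a median of 0.26. Alox5ap, the 5-lipoxygenase activating protein of leukocytes, had 4.20 ± 1.24 (SD, n = 3) in SOD-CCI and 13.8 ± 11.5 (SD, n = 4) in FOD-CCI, where replicate 2 was the highest.

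**Figure D5:**
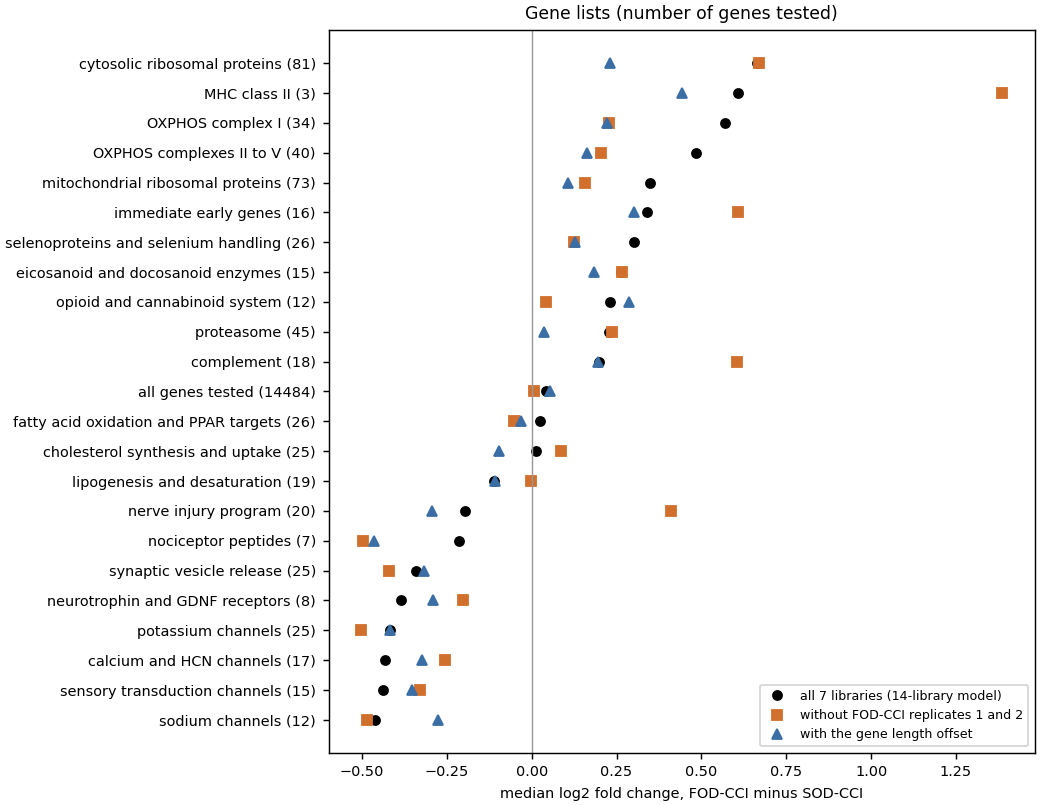
Median log2 fold change, FOD-CCI minus SOD-CCI, of 22 gene lists and of all genes tested (number of genes in parentheses), over all 7 libraries (black circles), without FOD-CCI replicates 1 and 2 in the 14-library model (orange squares) and with the gene length offset (blue triangles). Ribosomal proteins lie at 0.66, 0.67 and 0.23, sodium channels at -0.46, -0.48 and -0.28, and cholesterol genes at 0.01, 0.09 and -0.10.

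The same diet difference was read in DRG without ligatures. The sham groups gave 0 calls in 14484 (0.0%), with 491 genes below an unadjusted p of 0.05 (3.39%), and the interaction of diet with surgery gave 0 calls (0.0%) and 725 such genes (5.01%) by edgeR. DESeq2 gave the interaction 42 calls. The interaction shares the 7 injured libraries with the main comparison. Several sham libraries carried other tissue. SOD-CT replicate 1 held 113540 CPM of skeletal muscle markers, with a TMM factor of 0.656, FOD-CT replicate 2 held 26378 CPM and SOD-CT replicate 4 held 5848 CPM of them, against 8.75 to 223 CPM in the 7 injured libraries. FOD-CT replicate 1 held 942 CPM of spinal cord neuron markers and SOD-CT replicate 4 held 10540 CPM of red cell markers. Leaving out each of the 14 libraries in turn kept the interaction at 0 calls by edgeR, as did leaving out SOD-CT replicate 1 and FOD-CT replicate 2 together (723 genes at an unadjusted p under 0.05), a choice made after seeing the data. Ribosomal proteins had a median of -0.46 between the sham groups, with 4 of 81 higher, against 0.66 in injured DRG, and 55 of 81 had an interaction at an unadjusted p under 0.05. Without those muscle-rich libraries the sham median was -0.12 with 33 of 81 higher, and 45 of 81 had such an interaction. Rps10, for example, had -0.27 (SE 0.28) between sham groups and an interaction of 1.47 (SE 0.41) (unadjusted p = 0.00285 by edgeR), and without them 0.06 (SE 0.25) and 1.13 (SE 0.34) (unadjusted p = 0.00545). This was not particular to ribosomal proteins. Over all 14 left libraries their median interaction was 1.12, beside 1.22 for complex I and 1.26 for complexes II to V. Genes of 501 to 1000 bases had medians of 0.39 in injured DRG and -0.24 between the sham groups. The part of gene length in these interactions was not tested. Sodium channels had a median of -0.09 between the sham groups (-0.10 without the muscle-rich libraries), and 1 of 12 had an interaction at an unadjusted p under 0.05. Scn10a had -0.39 (SE 0.51) between sham groups and an interaction of -0.87 (SE 0.71) (unadjusted p = 0.240 by edgeR), so its diet difference was not shown to differ between injured and sham DRG.

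In the 6 contralateral libraries 0 of 13590 genes were called (0.0%) and 1292 were at an unadjusted p under 0.05 (9.51%) by edgeR, while DESeq2 called 202. Without FOD-CCI contralateral replicate 1, which held 1027 CPM of spinal cord neuron markers against 3.83 to 8.77 CPM in the other 5, edgeR called 17. The columns of the left and right libraries share numbers in the deposited table, so these are the opposite ganglia of the same rats and not further animals. Ribosomal proteins had a median of 0.62 there, with 79 of 81 higher, sodium channels -0.52, with 3 of 11 higher, and complement genes 1.21, with 14 of 16 higher. The general neuron markers had a median of -0.57 there, with 1 of 15 higher. Their sum was 5729 CPM in FOD-CCI contralateral replicate 1, against 31199 to 41634 CPM in the other 5 libraries. Chrna5 (-1.61, unadjusted p = 0.00731 by edgeR), Metrn (1.36, 0.00238) and Sphkap (-1.28, 0.00279) had the direction of the injured side. Macrophage markers summed to 37.2, 68.4 and 97.4 CPM in SOD-CCI and 368, 146 and 266 CPM in FOD-CCI contralateral libraries, with no overlap. FOD-CCI contralateral replicate 1 (368 CPM) also held 6044 CPM of spinal cord glia and 5698 CPM of red cell markers. Replicate 3 (266 CPM) held 8822 CPM of skeletal muscle and 2863 CPM of red cell markers. SOD-CCI contralateral replicate 2 held 2316 CPM of skeletal muscle markers. The part of these tissues in the macrophage sums was not tested. For each library, the deviation of each gene from its mean log2 CPM over all 20 libraries was correlated with gene length (Spearman). In contralateral libraries this correlation ran from -0.152 to 0.363 in SOD-CCI and from -0.310 to -0.0145 in FOD-CCI. In left libraries it ran from 0.168 to 0.295 in SOD-CCI and from -0.264 to 0.00304 in FOD-CCI.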

How the data were processed

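RNA from DRG was measured in 20 libraries, of which the 7 left libraries of FOD-CCI and SOD-CCI rats are compared here. Per the labels and the study's methods, the authors used fastp for trimming, HISAT2 for alignment and featureCounts 1.5.0-p3 for counting per gene. The deposited values used here are whole-number counts without scaling. Which genome build was used, whether strand was read and how multiply aligned reads were counted are not given in the sources used here, so overlapping and antisense genes are uncertain. A deposited FPKM table was not used here. The study left out a SOD-CCI and a FOD-CT sample before library preparation.

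The filter kept the 14484 of 39747 genes that reached 10 counts in 90% of the libraries (13 of 14). Counts were TMM-scaled and tested two-sided with edgeR 4.0.16 (R 4.3.3) in a model with a mean per group over the 14 left libraries, so that the groups share 1 estimate of the spread. The study's thresholds defined a call: a fold change of 1.2 or more with a Benjamini-Hochberg adjusted p no larger than 0.1. The 5 libraries without FOD-CCI replicates 1 and 2 were fitted alone (10 counts in all 5). DESeq2 1.42.0 and an offset from a lowess fit (span 0.3) of log counts on gene length were alternatives. Contralateral libraries were fitted alone. Gene lists were described without tests. Scripts were tested on simulated data, where the 5-library fit recovered 28% of genes changed by 1 and 94.95% of those changed by 2 on the log2 scale, with 10.3% of calls false. The simulation gave every gene the same dispersion and held no trend with gene length and no other tissue. These shares therefore do not carry over to the calls in the real data. p-values measure the spread between libraries of separate rats, which in the 14-library model includes libraries that carry other tissue. Replicates within a group correlated at 0.875 to 0.965 (FOD-CCI) and 0.976 to 0.983 (SOD-CCI, Spearman).

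Members, lists and tests were chosen with earlier results of these data known. Named genes are the 12 higher and 12 lower genes of smallest unadjusted p with no overlap, a mean of at least 5 CPM and a symbol that is neither a placeholder nor a ribosomal protein, up to 3 members of a list by unadjusted p, and a fixed set. Scn8a, Kcnab2, Calcb, Sv2b, Avil, Drgx, Prdm12, Isl2, Htr3a, Rps27a, C1qb, C1qc, Aif1, Ctss, Lyz2, Vip, Ecel1, Sox11, Mmp13, Isl1, Pou4f1, Rbfox3 and the nicotinic subunits other than Chrna3 and Chrna5 were named by the 5-library calls or after their values were seen. Oprm1 of the fixed set was not tested in the main model. Numbered replicates of FOD-CCI and SOD-CCI did not deviate together (correlations of 0.145, -0.0332 and -0.0849), so they were not paired.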

Additional observations from a re-analysis of the deposited data

Results flagged for a closer look

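Among the 4 FOD-CCI libraries, 19 of 121 values looked at had 1 library far from the other 3 (Dixon's criterion for 4 values), where chance flags about 1 in 20 groups. Of these, 13 were among 108 genes. Replicate 2, with blood transcripts, was the highest for Hmgn1 (114 CPM), Hint1-ps1 (76.7), Scn11a (176), Calcb (264), Grik1 (61.6), Rpl22l1 (527), Mrps18c (143), Cox7b (766), C3 (85.9) and Mmp13 (31.0), all in TMM-scaled CPM. Replicate 1, with spinal cord transcripts, was the highest for Kcnab2 (155 CPM) and the lowest for Bdnf (11.9 CPM) and Fads1 (232 CPM).

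The summed markers gave 6 further values. Replicate 2 was the highest for neutrophil and marrow (3243 CPM), red cell (24825 CPM) and skeletal muscle markers (223 CPM). Replicate 1 was the highest for spinal cord glia (3762 CPM) and spinal cord neuron markers (964 CPM). Satellite glia markers were lowest in replicate 3 (4179 CPM), a library with injury genes in the range of the SOD-CCI libraries or above it. The causes were not tested.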

How the results depend on the processing

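The main model had no call that an alternative could reverse. Of 107 genes with a fit, 15 changed sign under at least 1 of the other settings, and the median of the injury program turned from -0.20 to 0.39 in the 5 libraries alone and that of MHC class II genes from 0.61 to -0.38 with the replicate block and -0.33 without FOD-CCI replicate 4. The count of 0 calls became 2 with DESeq2, 2 without 4 libraries that carry other tissue and 247 in the 5 libraries alone. Alternatives chosen after seeing the data gave 62 (6 libraries without FOD-CCI replicate 1), 96 (5 libraries with the length offset) and 900 (5 libraries by DESeq2, which held 246 of the 247), and leaving out 1 library of the 5 gave 0, 48, 65, 234 and 897. The 782 genes at an unadjusted p under 0.05 became 2047 in the 5 libraries alone, 1784 in the 7 alone and 266 without FOD-CCI replicates 1 and 2 in the 14-library model, and 322 to 1038 with 1 library left out, the lowest without SOD-CCI replicate 2. It was 1476 without SOD-CT replicate 1 and FOD-CT replicate 2, the sham libraries with the most muscle transcripts. The interaction had 42 calls by DESeq2. Contralateral calls were 202 by DESeq2 and 0 to 17 with 1 library left out. The causes were not tested. With the replicate number as a block, which the pairing check does not back, there were 0 calls and 739 genes at an unadjusted p under 0.05, and medians of -0.22 for potassium channels, -0.60 for transduction channels and -0.27 for lipogenesis.

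Of 352 list medians under alternatives, 320 moved by less than the spread of replicates. That spread includes FOD-CCI replicates 1 and 2 and is wide for lists that they disturb. The 320 therefore include the sign changes given above for the injury program and MHC class II genes. With the gene length offset the medians were 0.23 for cytosolic and 0.11 for mitochondrial ribosomal proteins, 0.22 for complex I, 0.16 for complexes II to V, 0.0346 for the proteasome, -0.28 for sodium channels, -0.47 for nociceptor peptides and 0.13 for selenoproteins. In the 5 libraries alone, without 4 libraries with other tissue, and without FOD-CCI replicates 1 and 2, they were 0.14, 0.15 and 0.16 for mitochondrial ribosomal proteins, 0.21, 0.22 and 0.23 for complex I, 0.19, 0.20 and 0.20 for complexes II to V, -0.51, -0.50 and -0.50 for nociceptor peptides, 0.11, 0.12 and 0.12 for selenoproteins, and -0.0695, -0.0592 and -0.0517 for fatty acid oxidation. With 1 library left out, transduction channels ranged from -0.63 to -0.39, nociceptor peptides from -0.49 to 0.0021 and fatty acid oxidation from -0.0339 to 0.0306. With 4 and 3 rats, changes of 1 on the log2 scale were mostly not detectable in the main model.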
